A study of Arabidopsis thaliana with 12 samples.

Results

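PRK (AT1G32060) encodes phosphoribulokinase and SBPASE (AT3G55800) encodes sedoheptulose bisphosphatase. Both transcripts were taken from every probe whose platform annotation names that locus and no other. This gave 2 genes with 1 probe each, probe 3151 for PRK and probe 1517 for SBPASE, among the 651 genes that were tested on probes of a single locus. PRK lies on chromosome 1 and SBPASE on chromosome 3 of the RefSeq TAIR10.1 assembly, and no probe shared between several loci named either of them. Neither probe was checked by sequence.

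The arrays compared 2 groups of wild-type Arabidopsis thaliana, ecotype C24. The 6 untreated samples came from plants grown under light that mainly drives photosystem II. The 6 DCMU samples came from plants under that same light that were also given DCMU, an inhibitor of electron transport, so both groups share genotype and light. The labels give no tissue, plant age, dose or length of treatment, and they number the samples 1 to 6 in each group.

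The Calvin cycle fixes carbon dioxide in the chloroplast stroma and then regenerates its acceptor, ribulose bisphosphate. SBPASE removes a phosphate from sedoheptulose bisphosphate within the regeneration phase, and PRK makes ribulose bisphosphate from ribulose-5-phosphate as its last step. Both are proteins encoded in the nucleus and imported into the plastid, and both enzymes become active in the light when thioredoxin, reduced with electrons from the photosynthetic chain, opens a disulfide bond in them. DCMU blocks that chain at the acceptor side of photosystem II. The arrays measured transcripts only, not enzyme protein, its redox state or its activity.

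Levels are spot intensities on a linear scale in the authors' own scaled units. Array totals ran from 3643 to 3768 and the median spot from 0.596 to 0.687. Background values were not used here, so how far either transcript lay above the local background is unknown, and precision is limited by how many arrays there are. The sample numbers 1-2, 3-4 and 5-6 varied together within each group, so each such number pair was averaged on the log2 scale to 1 replicate, which left 3 replicates per group. Whether the replicates are separate plantings is not stated, so p-values measure the spread between them, which may be technical.

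PRK was higher with DCMU in every number pair. In untreated plants it was 0.651 and 0.618 in numbers 1 and 2, 0.574 and 0.507 in numbers 3 and 4, and 0.699 and 0.704 in numbers 5 and 6. With DCMU it was 0.701 and 0.682 in numbers 1 and 2, 1.12 and 0.965 in numbers 3 and 4, and 0.903 and 0.849 in numbers 5 and 6. The DCMU samples 3 to 6 lay above all untreated samples, while DCMU samples 1 and 2 lay within the range of the untreated ones. Averaged over replicates, PRK went from 0.625 ± 0.0811 to 0.868 ± 0.174 (SD, n = 3), a ratio of 1.38 and a log2 change of 0.46 with a standard error of 0.16.

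SBPASE was also higher with DCMU in every number pair. In untreated plants it was 0.609 and 0.652 in numbers 1 and 2, 0.695 and 0.677 in numbers 3 and 4, and 0.534 and 0.546 in numbers 5 and 6. With DCMU it was 0.687 and 0.728 in numbers 1 and 2, 0.887 and 0.868 in numbers 3 and 4, and 0.885 and 0.846 in numbers 5 and 6. Among single samples the groups met only where untreated sample 3, at 0.695, exceeded DCMU sample 1, at 0.687. Averaged over replicates, SBPASE went from 0.619 ± 0.0736 to 0.817 ± 0.0950 (SD, n = 3), a ratio of 1.32 and a log2 change of 0.40 with a standard error of 0.13.

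**Figure D1:**
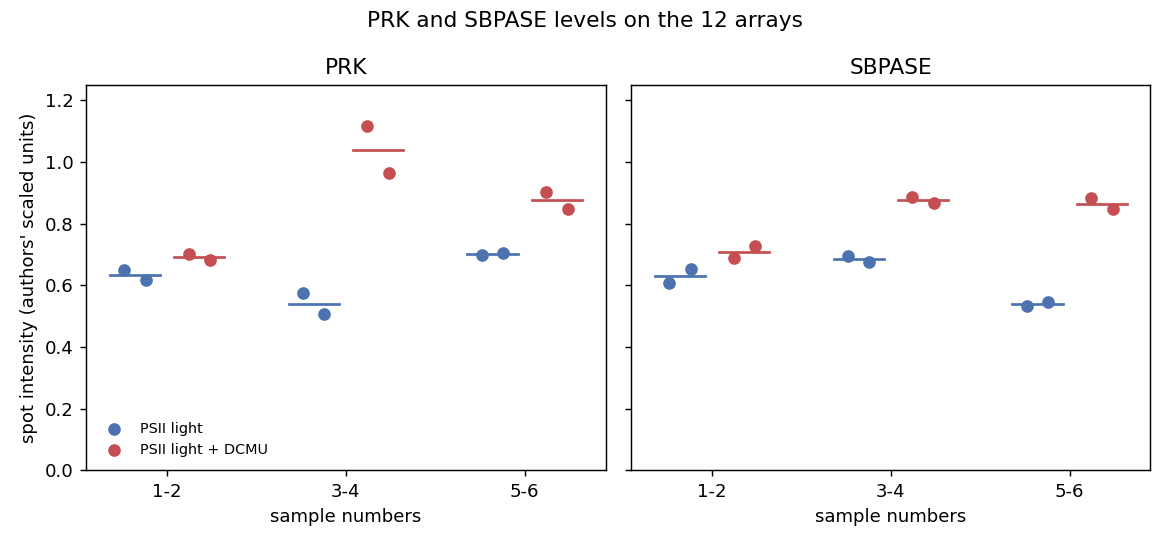
Spot intensity of PRK (left) and SBPASE (right) in the authors' scaled units, by sample number pair; each point is 1 array and each line the geometric mean of the 2 arrays of a number pair. Blue marks untreated plants and red DCMU-treated plants; PRK differs most in numbers 3-4 and SBPASE in numbers 5-6.

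Neither difference passed the test when the 3 replicates of one group were set against the 3 of the other. In limma's moderated test, adjusted over all 3278 features, PRK had adjusted p = 0.121 (95% interval of the log2 change 0.11 to 0.82) and SBPASE adjusted p = 0.111 (0.11 to 0.69). So 0 of 2 genes were called by this rule (unadjusted p = 0.0150 for PRK and 0.0117 for SBPASE), under which 5.09% of all features were called and 1.92% were called higher with DCMU. As single values, PRK gave p = 0.2 and SBPASE p = 0.1 in the exact two-sided permutation test (adjusted p = 0.3 for both over the 3 such tests made), where 3 against 3 cannot go below 0.1. The 3 replicates of each group did not overlap for SBPASE and did overlap for PRK, because untreated numbers 5-6 (0.701) stood just above DCMU numbers 1-2 (0.691). Replicates stood apart with DCMU on top in 21.9% of all features.

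The same numbers in the 2 groups deviated together across all features (correlations of 0.38 to 0.44 for replicates that share their numbers, against -0.38 to 0.01 for the rest), so the comparison was also made within number pairs. Each group's mean was removed before correlating, so the contrast with the rest is in part built in by that centring. With the replicate number as a block both transcripts rose with DCMU. PRK had adjusted p = 0.0326 in limma (95% interval 0.17 to 0.75) and SBPASE adjusted p = 0.0279 (0.16 to 0.64). In this fit 10.7% of all features were called higher, and 40.1% of all features were higher with DCMU in all 3 number pairs, as these genes were. Both calls were lost when each array was first centred on its median (limma with the block, log2 change 0.39 and adjusted p = 0.115 for PRK, 0.33 and adjusted p = 0.0607 for SBPASE), a setting in which 5.34% of features were called higher. The exact paired permutation test of 3 pairs gave p = 0.25 for each gene (adjusted p = 0.375), the smallest it allows.

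Set against the rest of the array, both changes were in the upper tail. The median log2 change was 0.10 over all features and 0.12 over the named genes. A log2 change at least as high as that of PRK was found in 3.84% of all features and in 28 of the 651 named genes, PRK included. For SBPASE the corresponding figures were 5.46% and 39 genes. Both genes were chosen with earlier results of these data known, so these shares are descriptions only.

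**Figure D2:**
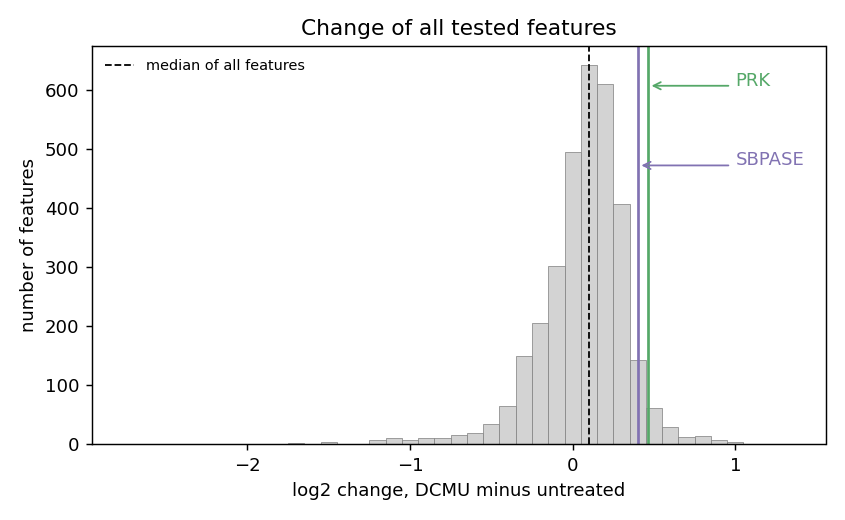
Histogram of the log2 change (DCMU minus untreated, mean of 3 replicates per group) over all 3278 features, with the number of features on the vertical axis. Solid lines mark PRK at 0.46 and SBPASE at 0.40, and the dashed line marks the median of all features at 0.10.

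The size of the difference varied between number pairs, and the 2 genes did not peak in the same pair. PRK had a log2 change of 0.12 in numbers 1-2 (95% interval -0.06 to 0.31), 0.94 in numbers 3-4 (0.76 to 1.13) and 0.32 in numbers 5-6 (0.13 to 0.51). In numbers 3-4 this was a ratio of 1.92, which only 8 of the 3278 features reached or passed, PRK included. SBPASE had a log2 change of 0.17 in numbers 1-2 (0.02 to 0.31), 0.36 in numbers 3-4 (0.21 to 0.50) and 0.68 in numbers 5-6 (0.54 to 0.82). Its largest ratio was 1.60, in numbers 5-6, where 127 features changed as much or more.

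In numbers 1-2 both genes stayed close to the median change of all features, which was 0.10 there. A change at least as high as that of PRK was seen in 45.7% of features in this pair, and one at least as high as that of SBPASE in 38.1%. The median change was 0.03 in numbers 3-4 and 0.13 in numbers 5-6. In numbers 3-4 only 5.98% of features matched or passed the change of SBPASE, while in numbers 5-6 as many as 24.8% matched or passed that of PRK.

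The differences between number pairs were larger than the spread between arrays of the same number pair. Over the 12 arrays, limma's F test of unequal change among number pairs gave adjusted p = 0.00235 for PRK and 0.00736 for SBPASE. This test, chosen after the values were seen, called 26.3% of all features, and its error is the gap between the 2 arrays of a number pair, which may be technical. That gap was at most 0.21 on the log2 scale for PRK and 0.098 for SBPASE. Single sample numbers showed the same picture: DCMU minus untreated was 0.11, 0.14, 0.96, 0.93, 0.37 and 0.27 for PRK in numbers 1 to 6. For SBPASE these log2 differences were 0.17, 0.16, 0.35, 0.36, 0.73 and 0.63.

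LHCB1.5, a chlorophyll-binding protein of the photosystem II antenna, changed by a similar amount in each pair. Its log2 change was -1.07, -1.17 and -1.22 in numbers 1-2, 3-4 and 5-6, and the F test over the 12 arrays gave adjusted p = 0.460. All 3 intervals lay below 0, while those of PRK and SBPASE lay above 0 or included it. LHCB1.5 is 1 of the 4 measured genes listed for photosynthetic tissue, and the other three, PSBW, PSAN and CHLM, did not pass limma's test without or with the block. Their log2 changes were 0.23, 0.10 and 0.13, opposite in sign to that of LHCB1.5. The summed level of the 4 genes was 37.4 to 47.3 in untreated and 30.2 to 39.0 in DCMU samples, a sum in which LHCB1.5 is the only one of the 4 that was lower with DCMU. Its part in the differences of PRK and SBPASE was not tested, and 0 of 8 listed root genes had a probe of their own. In such bulk RNA, fewer cells of a type and less RNA per cell cannot be told apart.

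**Figure D3:**
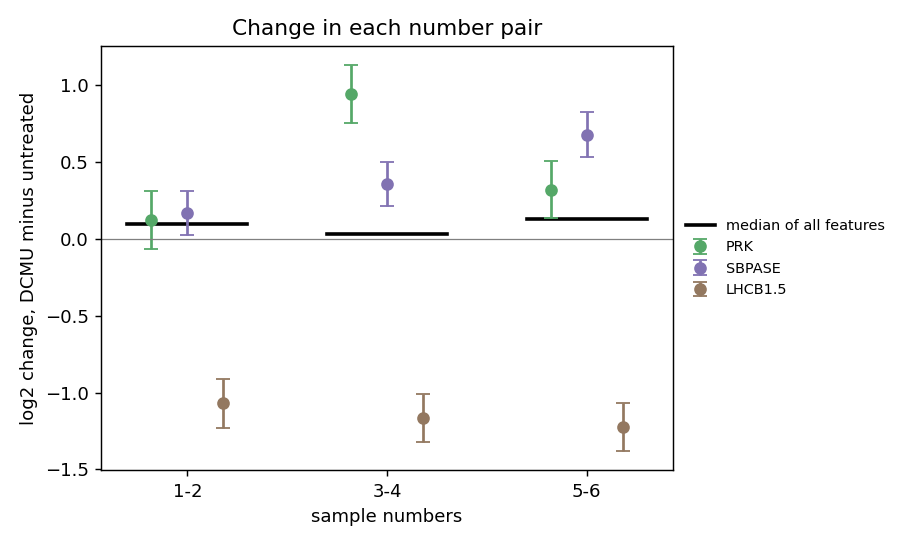
Log2 change (DCMU minus untreated) in each sample number pair for PRK, SBPASE and LHCB1.5; points are the change between the means of 2 arrays per group and bars are 95% intervals from limma over 12 arrays, which hold only the spread between arrays of a number pair. Black lines mark the median of all features; PRK reaches 0.94 in numbers 3-4, SBPASE 0.68 in numbers 5-6, and LHCB1.5 stays between -1.22 and -1.07.

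Part of the unequal change lay in the untreated plants. Untreated PRK was lowest in numbers 3-4 (0.540), intermediate in numbers 1-2 (0.634) and highest in numbers 5-6 (0.701). Untreated SBPASE ran the other way, from 0.540 in numbers 5-6 through 0.630 in numbers 1-2 to 0.686 in numbers 3-4. So each gene differed most between groups in the number pair where its untreated level was lowest. A low untreated level by itself enlarges that difference, so this match is partly built in, and it was not tested. With DCMU both genes were lowest in numbers 1-2 (0.691 for PRK and 0.707 for SBPASE). PRK then stood at 1.04 in numbers 3-4 and 0.876 in numbers 5-6, and SBPASE at 0.877 and 0.865.

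Within the groups, the 2 transcripts ran in opposite directions without DCMU and in the same direction with it. Across the 6 untreated samples their log2 levels had Pearson r = -0.88, and across the 6 DCMU samples r = 0.90. Each r rests on 3 number pairs and not on 6 independent samples, and the 2 levels of a sample share its array and scaling, so no p is given and the difference was not tested. With the group means removed, r over the 12 samples was 0.18. By this measure SBPASE ranked 82nd of 642 named genes in likeness to PRK, and PRK ranked 265th of 642 in likeness to SBPASE. With the group means kept, which lets the shared difference with DCMU count, r was 0.67 and the ranks were 23 and 142.

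**Figure D4:**
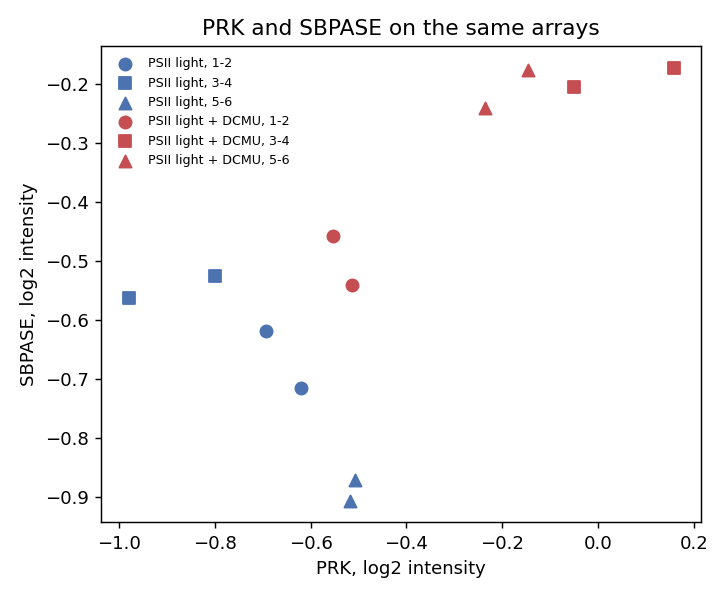
Log2 intensity of SBPASE against that of PRK on the same array, with circles for numbers 1-2, squares for 3-4 and triangles for 5-6, blue for untreated and red for DCMU-treated plants. The untreated points run downward (r = -0.88) and the DCMU points upward (r = 0.90), each over 6 arrays in 3 number pairs.

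Whether the 2 genes changed by different amounts was tested on the log2 ratio of PRK to SBPASE within each replicate. This log2 ratio was 0.01 ± 0.36 in untreated and 0.08 ± 0.15 in DCMU plants (SD, n = 3). The change of PRK minus that of SBPASE was 0.06 (95% interval -0.56 to 0.69), with p = 0.9 in the exact two-sided permutation test (adjusted p = 0.9 over the 3 tests). The interval is that of an unpaired t test with pooled variance, which takes no account of the number pairs. Per number pair it was -0.04 in numbers 1-2, 0.59 in numbers 3-4 and -0.36 in numbers 5-6, so PRK changed more in 1 of 3 pairs. The interval is wide, and it leaves room for either gene to have changed more.

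The calls made with the block were not kept in every fit that left out a number pair. PRK lost its call without numbers 1-2 or 3-4, and SBPASE without numbers 1-2 or 5-6. With numbers 3-4 left out of both groups, the log2 change of PRK was 0.22 (limma with the block, adjusted p = 0.178), while that of SBPASE was 0.42 (adjusted p = 0.00625). With numbers 5-6 left out, SBPASE was at 0.26 (limma with the block, adjusted p = 0.238) and PRK at 0.53 (adjusted p = 0.00249). With numbers 1-2 left out, both changes were larger than with all numbers, PRK at 0.63 against 0.46 and SBPASE at 0.52 against 0.40. Neither gene was called there (limma with the block, adjusted p = 0.192 and 0.185). These fits, added after the values were seen, hold 2 replicates per group. The sign of both genes was positive in each of them, which was fixed in advance because both genes rose in every number pair.

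The rest of the Calvin cycle was hardly covered. Of 24 listed loci of the cycle and its regulators, PRK and SBPASE were the only ones with a probe of their own. Their median log2 change was 0.43, against 0.10 over all features. A further 2 probes were annotated to 2 loci each, 1 of them in the list, and are given by probe number only. Probe 1872 rose with DCMU from 0.160 ± 0.0263 to 0.254 ± 0.0224 (SD, n = 3; log2 change 0.67, limma adjusted p = 0.0223). This is a dim probe: 10 of its 12 values lay below 0.270, the 10th percentile of positive values, and with the floor set there its log2 change was 0.01 (limma, adjusted p = 0.812), a setting added for this probe after its values were seen. Probe 665 held 1.36 ± 0.143 in untreated and 1.30 ± 0.113 in DCMU plants (SD, n = 3; log2 change -0.06, limma adjusted p = 0.772). As scaled, probe 1872 had its largest log2 change in numbers 1-2 (0.98), followed by 3-4 (0.68) and 5-6 (0.37), an order that neither PRK nor SBPASE showed.

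The thioredoxin system, which passes electrons on to these enzymes, had 2 of 14 listed loci on probes of their own. FTRB, the catalytic subunit of ferredoxin-thioredoxin reductase, stood at 0.666 ± 0.0551 in untreated and 0.636 ± 0.00545 in DCMU plants (SD, n = 3). NTRC, a plastid NADPH-thioredoxin reductase fused to a thioredoxin, stood at 0.819 ± 0.173 and 0.859 ± 0.195 (SD, n = 3). Neither passed limma's test, without the block (log2 change -0.06 and 0.07, adjusted p = 0.731 and 0.835) or with it (adjusted p = 0.671 and 0.681). NTRC changed by 0.13, -0.21 and 0.29 on the log2 scale in numbers 1-2, 3-4 and 5-6. NTRC was thus lower with DCMU in the pair where PRK differed most, and rose most in the pair where SBPASE differed most. This match was not tested, and limma's F test called unequal change among number pairs in 26.3% of all features. Probe 4219, annotated to 3 listed thioredoxin loci, had a log2 change of -0.07 (limma, adjusted p = 0.706).

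Genes whose levels ran most like the mean of PRK and SBPASE were ranked by Pearson r over the 12 samples with the group means removed, among the other 641 named genes above the floor on all arrays. The 5 highest were AT4G05070 (r = 0.87), AILP1 (AT5G19140, r = 0.83), AT4G20300 (r = 0.82), AT3G44610 (r = 0.81) and AT1G21660 (r = 0.79). AILP1 is dim, from 0.139 to 0.176 in untreated and from 0.0999 to 0.183 in DCMU samples. All its values lay below 0.270, the higher floor applied to probe 1872. With that floor AILP1 would not vary between samples, so its r holds only for the lower floor used here. The likeness to the single genes was uneven. AT4G05070 had r = 0.84 with PRK and 0.44 with SBPASE, AT1G21660 had 0.82 and 0.31, and AT4G20300 had 0.61 and 0.69. PRK and SBPASE ran in opposite directions without DCMU (r = -0.88) and together with it (r = 0.90). Their mean therefore varied little among untreated samples, and the ranking rests mainly on the DCMU samples. Among the DCMU replicates, all 5 genes were lowest in numbers 1-2, as PRK and SBPASE were. The ranking thus does not show likeness to both genes in both groups. These r are descriptions, because the samples form 3 number pairs per group and share their scaling.

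None of these 5 genes passed limma's test without or with the block. Their log2 changes ran from -0.29 for AT1G21660 to 0.13 for AT3G44610, and the likeness, by its construction, concerns how samples of a group differ from each other.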

How the data were processed

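Total RNA of 12 Arabidopsis samples had been measured by array. The deposited table holds 1 intensity per probe and sample for 3439 probes on a linear scale, already scaled by the authors, as the nearly equal array totals show. How arrays were labelled, scanned, corrected for background or scaled is not given in the sources used here. Platform annotation named 1 gene for 692 probes, several for 870 and none for 1877; 2 of the 692 had no entry in the RefSeq TAIR10.1 gene table.

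Before log2, low values were raised to a floor of 0.0669 (percentile 1 of all values above 0). After 160 probes at or under it on every array were left out and spots of 1 gene averaged, 3278 features remained. Within number pairs, samples deviated from their group mean together (r of 0.36 to 0.67, against -0.58 to -0.11 otherwise, in part through the centring), so number pairs were averaged to 3 replicates per group. Same-numbered replicates also correlated across groups (3 of 3 above 0.1), which is where the pairing of the blocked fit comes from. The groups were tested in R 4.3.3 with limma 3.58.1 (lmFit, eBayes, two-sided, Benjamini-Hochberg threshold 0.05), first without and then with the replicate block. The script was tested on simulated data. Single values were tested by exact permutation.

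The genes named are PRK, SBPASE, the measured genes of the fixed lists and the 5 genes most like them. Members and lists were chosen with earlier results of these data known. Alternatives covered scaling, floor, filter, weights, blocks and left-out replicates. Probe, promoter and protein sequences were not used here.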

Additional observations from a re-analysis of the deposited data

How the results depend on the processing

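The log2 change of PRK and of SBPASE was positive under all 25 other settings, between 0.22 and 0.63 for PRK and between 0.23 and 0.52 for SBPASE. For many settings this sign was fixed in advance. Those that altered only the error estimate, the floor or the other features tested returned the main changes of 0.46 and 0.40. Fits that left a number pair out of both groups could not turn negative, because both genes rose in every number pair. Limma's adjusted p ran from 0.00249 to 0.340 for PRK and from 0.00408 to 0.498 for SBPASE, and was under the threshold in 3 and 4 settings. Without rescaling these were the replicate block (PRK 0.46, SBPASE 0.40), all 12 samples as separate replicates (0.46 and 0.40, adjusted p = 0.00907 and 0.00408), and for SBPASE also the number pair as a random block (0.40, adjusted p = 0.0305, against 0.0572 for PRK). With the block, leaving numbers 3-4 out of both groups kept SBPASE called (0.42) and leaving numbers 5-6 out kept PRK called (0.53), as given above. Taking 12 samples as separate replicates ignores that paired numbers vary together. A pseudocount of 0.5 in place of the floor lowered the changes to 0.28 and 0.23. The 167 features called became 566 with the replicate block, 502 when median centring preceded the block, 465 when quantile normalization did, 1089 with 12 separate samples, 302 with the random block, 110 with the floor at the 10th percentile, 102 with no filter on dim probes and 359 with array weights; leaving out 1 replicate gave 77 to 282. The block took the calls higher with DCMU from 63 of 167 to 351 of 566, and median centring with the block brought them to 175 of 502. Leaving out 1 replicate moved the difference between the changes of PRK and SBPASE from 0.06 to between -0.12 and 0.24, negative without untreated numbers 3-4 (-0.12) or DCMU numbers 3-4 (-0.02). Except for the construction of each setting, the cause was not tested. Without background values, the signal of either gene over background cannot be given.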
